A study of Mus musculus with 8 samples.

Results

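The Schlafen family of the mouse was examined in RNA-seq of the right cerebral cortex. Its members were chosen by gene symbol, Slfn1, Slfn2, Slfn3, Slfn4, Slfn5, Slfn8 and Slfn9, which are 7 of the 54752 genes in the count tables. The libraries came from 4 Sham and 4 BCAS mice, 1 mouse per library, taken 3 weeks after surgery. All were adult males of the C57BL/6 strain by the labels, C57BL/6 J by the methods. In BCAS, bilateral carotid artery stenosis, wire microcoils were placed around both common carotid arteries to lower the blood flow to the brain for weeks, with the narrower coil on the right, which is the side that was sequenced. Sham mice went through the same surgery without coils. The samples were whole pieces of cortex, so every value is a sum over neurons, glia, vessels and any blood-borne cells, and in such tissue more cells of a type and more RNA per cell cannot be told apart.

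Schlafen genes take their name from the German verb for sleeping, because the first of them held developing T cells in a quiescent state. All members share an N-terminal Schlafen core domain with a divergent AAA motif, for which RNA cleavage and RNA binding have been described in several relatives. The family is sorted by length. Slfn1 and Slfn2 are short, Slfn3 and Slfn4 are of intermediate length and carry a further linker domain, and Slfn5, Slfn8 and Slfn9 are long and end in a domain that resembles superfamily I RNA helicases. Type I interferon is known to raise several Schlafen genes in immune cells, and the family is best known from T cells, monocytes and macrophages, not from neurons. In the GENCODE vM21 annotation the longest coding sequence was 1011 bases for Slfn1, 1134 for Slfn2, 1806 for Slfn4, 1920 for Slfn3, 2652 for Slfn5, and 2730 for both Slfn8 and Slfn9.

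The 7 members stand in a single cluster of 263.8 kb on chromosome 11 (mm10, GENCODE vM20 in the count tables). From the first to the last they are Slfn5 (ENSMUSG00000054404.13, 82951349 to 82964840, plus strand), Slfn9 (ENSMUSG00000069793.12, 82978390 to 82991830, minus strand), Slfn8 (ENSMUSG00000035208.16, 83002158 to 83020810, minus strand) and Slfn2 (ENSMUSG00000072620.3, 83065112 to 83070678, plus strand). They are followed on the plus strand by Slfn1 (ENSMUSG00000078763.2, 83116849 to 83122670), Slfn4 (ENSMUSG00000000204.16, 83175186 to 83190216) and Slfn3 (ENSMUSG00000018986.10, 83191330 to 83215154). The exons of 6 members overlapped no other gene in the tables. In Slfn5, 8.84% of exon bases were also exons of the antisense gene Slfn5os, and since the counting recorded no strand option, reads there cannot be told apart. Slfn5os itself held at most 2 counts in any library.

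The promoters are shown because the family is known as interferon-responsive and because those that held the core of an interferon-stimulated response element can be read against the expression values. In the RefSeq promoter windows (GRCm38.p6, 250 bases before to 50 bases after the start site), all 7 members were matched, with 8 windows, and both strands were searched for this core, GAAA followed by any 2 bases and GAAA again. The motif was found in Slfn5, Slfn8 and Slfn9, the 3 long members, and not in the windows of Slfn1, Slfn2, Slfn3 or Slfn4. Of all 32851 promoter windows, 3.44% held it. A gamma-activated site, TTCNNNGAA, was in no member window and in 8.30% of all windows. The windows are chr11:82951852-82952151 on the plus strand for Slfn5, chr11:83020761-83021060 on the minus strand for Slfn8 and chr11:82991781-82992080 on the minus strand for Slfn9, and the capitals mark the match.

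Slfn5: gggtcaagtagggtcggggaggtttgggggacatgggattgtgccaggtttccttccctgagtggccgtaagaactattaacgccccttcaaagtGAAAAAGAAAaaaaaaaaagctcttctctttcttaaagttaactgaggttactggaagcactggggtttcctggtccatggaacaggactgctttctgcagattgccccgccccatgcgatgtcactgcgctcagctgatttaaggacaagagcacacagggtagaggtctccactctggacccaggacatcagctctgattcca
Slfn8: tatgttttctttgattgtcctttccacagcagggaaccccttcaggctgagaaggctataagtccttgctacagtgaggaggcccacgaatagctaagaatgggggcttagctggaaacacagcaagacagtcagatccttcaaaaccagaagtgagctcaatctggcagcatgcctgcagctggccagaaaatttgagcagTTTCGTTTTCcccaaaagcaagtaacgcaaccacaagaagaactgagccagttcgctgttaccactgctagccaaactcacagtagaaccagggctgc
Slfn9: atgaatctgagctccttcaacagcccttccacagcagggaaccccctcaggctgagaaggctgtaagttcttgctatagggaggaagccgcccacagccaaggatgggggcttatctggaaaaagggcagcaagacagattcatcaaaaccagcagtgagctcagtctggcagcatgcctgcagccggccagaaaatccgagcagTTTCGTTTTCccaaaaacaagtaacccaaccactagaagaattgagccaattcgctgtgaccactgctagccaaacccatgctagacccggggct

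Slfn8 and Slfn9 carried the same match, GAAAACGAAA on the opposite strand, 48 and 45 bases before the start sites of the windows printed, and Slfn5 carried GAAAAAGAAA on its own strand 155 bases before its start. The second RefSeq window of Slfn8 (chr11:83020673-83020972) overlapped the first and held the same match, 136 bases before its own start site. A match describes letters only, and no binding was measured in these libraries.

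The libraries held 16759364 to 21794435 counts assigned to genes. Expression was compared with edgeR's quasi-likelihood test over the 17136 genes that passed a filter on low counts, with Benjamini-Hochberg adjustment over all of them. A call needed both an adjusted p under 0.05 and a change beyond 1 on the log2 scale in either direction. Levels are given as CPM, the counts per 1000000 assigned counts, on TMM-scaled library sizes, with SD over 4 mice.

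Every Schlafen member measured in the cortex was higher in BCAS than in Sham mice. The filter asked for a minimum of 0.558 CPM (on unscaled library totals) in at least 4 libraries, and 5 of the 7 members passed it. Slfn2, Slfn5, Slfn8 and Slfn9 reached the minimum in all 4 Sham libraries as well as in the BCAS libraries, and were called higher with log2 fold changes from 2.62 for Slfn5 to 4.40 for Slfn8. Slfn1 was also called, but it passed only through the 4 BCAS libraries, so that it had to differ between the groups to be tested at all. Over all tested genes 11.0% were called higher and 1.28% lower, and the median log2 fold change was -0.01. Slfn3 and Slfn4 reached the minimum in 3 BCAS libraries only, since BCAS mouse 2 held 8 counts of each, and are described below by their counts. In all 7 members the lowest BCAS mouse stood above the highest Sham mouse, which was also the case for 18.5% of all tested genes.

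**Figure D1:**
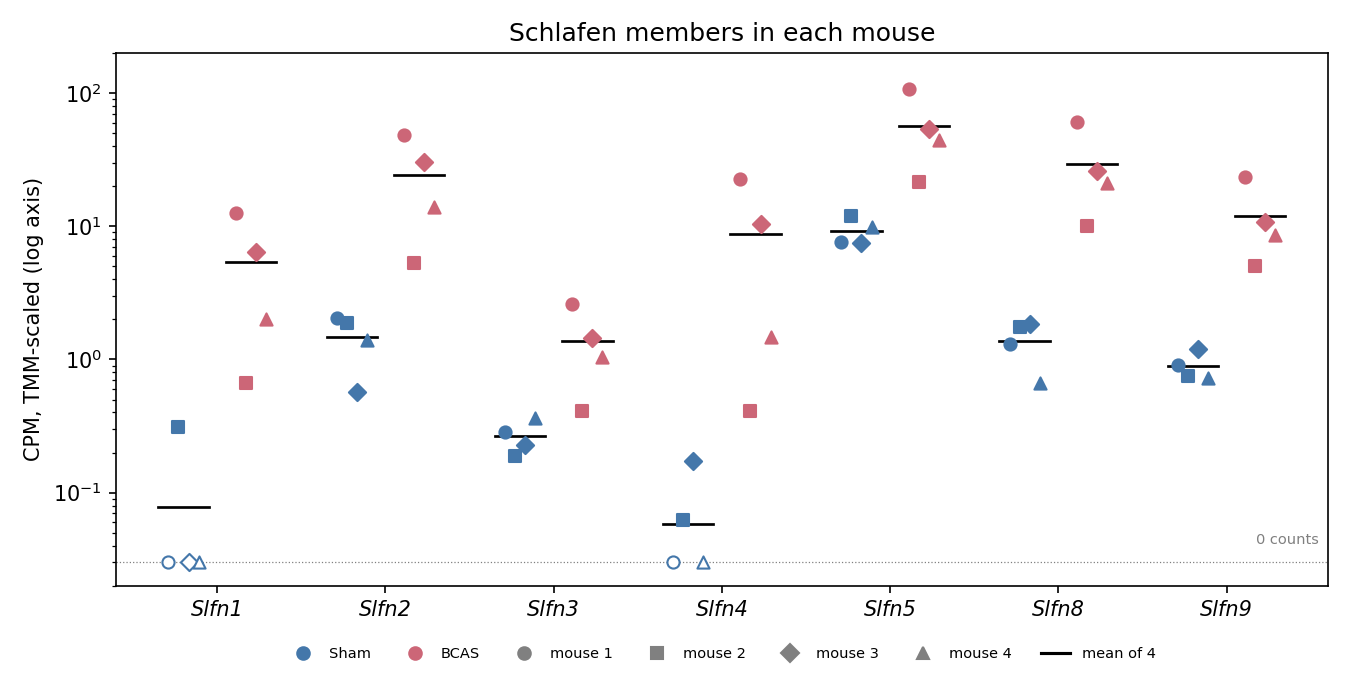
Level of each Schlafen member in each mouse as CPM on TMM-scaled library sizes (log axis). Points are mice (blue Sham, red BCAS, shape gives the mouse number within its group), bars are means of 4, and open points on the dotted line had 0 counts. In every member the 4 BCAS points lie above the 4 Sham points.

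Slfn5, the long member with the highest mean level per kb in Sham cortex, had 133, 193, 132 and 164 counts in Sham mice 1 to 4 and 2431, 415, 998 and 816 counts in BCAS mice 1 to 4. The mean level rose from 9.26 ± 2.16 CPM to 56.7 ± 36.2 CPM (SD, n = 4 each). BCAS mouse 1 was the highest and BCAS mouse 2 was the lowest of its group, but still 1.77 times the highest Sham mouse. The log2 fold change was 2.62 (SE 0.44, adjusted p = 0.00476 by edgeR), the smallest of the tested members.

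Slfn8, a long member with the helicase-like end, had 23, 28, 32 and 11 counts in Sham mice and 1370, 194, 480 and 387 counts in BCAS mice. Its mean rose from 1.39 ± 0.534 CPM to 29.3 ± 21.7 CPM (SD, n = 4 each). This member had the widest gap between the groups, with the lowest BCAS mouse 5.46 times the highest Sham mouse. The log2 fold change was 4.40 (SE 0.58, adjusted p = 0.00240 by edgeR).

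Slfn9, a close relative of Slfn8 that lies next to it on the same strand, had 16, 12, 21 and 12 counts in Sham mice and 537, 98, 198 and 158 counts in BCAS mice. Its mean rose from 0.896 ± 0.219 CPM to 11.99 ± 8.09 CPM (SD, n = 4 each), and the groups were apart by 4.20 times at their nearest mice. The log2 fold change was 3.73 (SE 0.49, adjusted p = 0.00237 by edgeR). Slfn9 also had the smallest spread among BCAS mice, 4.68 times from the lowest to the highest.

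Slfn2, the short member that keeps T cells and monocytes quiescent and protects tRNAs from cleavage, had 36, 30, 10 and 23 counts in Sham mice and 1093, 102, 558 and 257 counts in BCAS mice. Sham mouse 3 was low within its group, and BCAS mouse 2 lay closest to Sham, at 2.57 times the highest Sham mouse. The mean rose from 1.47 ± 0.660 CPM to 24.4 ± 18.9 CPM (SD, n = 4 each). The log2 fold change was 4.05 (SE 0.69, adjusted p = 0.00502 by edgeR).

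Slfn1, the founding member, which slows T cell growth when expressed in the thymus, was at 0 counts in Sham mice 1, 3 and 4 and at 5 counts in Sham mouse 2. A count of 0 allows up to 0.170, 0.172 and 0.181 CPM in those 3 libraries (3 counts each). The BCAS mice had 287, 13, 119 and 37 counts, a mean of 5.43 ± 5.38 CPM, and all were above Sham mouse 2. The log2 fold change was 6.07 (SE 1.25, adjusted p = 0.00963 by edgeR), which rests on those 5 Sham counts and came to 9.67 without Sham mouse 2. The pooled counts of the groups gave a ratio of 83.0 with a 95% counting interval of 35.3 to 257 (exact binomial, counting error only).

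Slfn4, an intermediate member known from monocyte and macrophage activation, had 0, 1, 3 and 0 counts in Sham mice and 513, 8, 193 and 27 counts in BCAS mice. BCAS mice 1 and 3 held most of these counts, and with 54.7 times between the lowest and the highest BCAS mouse Slfn4 varied more within BCAS than any other member. The pooled ratio was 169 (95% counting interval 65.6 to 621). An exact two-sided permutation test of its CPM over the 70 arrangements of the 8 mice gave p = 0.0286, the smallest p that 4 against 4 mice allow. With no filter on low counts edgeR gave a log2 fold change of 7.04 (SE 1.31, adjusted p = 0.00340 over 32537 genes).

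Slfn3, an intermediate member next to Slfn4 that has been linked to T cell subsets and to differentiation of gut epithelium, had 5, 3, 4 and 6 counts in Sham mice and 59, 8, 27 and 19 counts in BCAS mice. The groups only just separated, with BCAS mouse 2 at 1.14 times the highest Sham mouse. The pooled ratio was 5.72 (95% counting interval 3.46 to 9.99), and the exact permutation test gave p = 0.0286. With no filter edgeR gave a log2 fold change of 2.34 (SE 0.57, adjusted p = 0.0152 over 32537 genes). In filtered fits, which tested Slfn3 only when some libraries were left out, the adjusted p was 0.0518 without Sham mouse 1 (17613 genes) and 0.0542 without Sham mouse 2 (17666 genes), and 0.0441, 0.0431 and 0.00151 without Sham mouse 3, Sham mouse 4 and BCAS mouse 2. Slfn3 entered these fits only through the 3 BCAS libraries in which it reached the minimum.

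Of the other genes with a Schlafen symbol, the pseudogene Slfn10-ps, between Slfn8 and Slfn2, had 1, 2, 2 and 0 counts in Sham and 60, 12, 33 and 13 counts in BCAS mice. Its log2 fold change was 4.17 (SE 0.75, adjusted p = 0.00599 by edgeR), and like Slfn1 it passed the filter only through the BCAS libraries. Slfn14, a ribosome-associated endoribonuclease known from platelets and reticulocytes, had 2 counts in 1 Sham mouse and 0 in the other libraries. Slfnl1, the Schlafen-like gene on chromosome 4, had at most 2 counts in any library, so no difference was detectable for either at this depth.

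Reads of paralogs can be shared, so the transcripts were compared. At windows of 150 bases, the length of a read, none of Slfn1, Slfn2, Slfn4 and Slfn8 shared sequence with another annotated gene. The share was 1.29% in Slfn3 (with the gene Gm11427), 1.46% in Slfn9 (with Slfn10-ps) and 5.46% in Slfn5 (with Slfn5os). At 50 bases it ran from 0.606% in Slfn1 to 16.0% in Slfn3, with Slfn3 and Slfn4 sharing with each other, and Slfn8 and Slfn9 with Slfn10-ps.

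The BCAS mice differed among themselves, by 4.68 times in Slfn9 to 54.7 times in Slfn4 from the lowest to the highest, but their order was shared. In all 7 members mouse 1 was the highest, followed by mouse 3, mouse 4 and mouse 2. The same order held in 69.3% of the 1877 genes called higher. The summed level of the 7 members, as CPM per kb of exon, was 2.98, 3.82, 2.30 and 2.79 in the Sham group, against 77.7, 10.4, 41.3 and 23.8 in the BCAS group. The means were 2.97 ± 0.635 and 38.3 ± 29.1 CPM per kb (SD, n = 4 each), a ratio of 12.9. From the lowest to the highest mouse the sum differed 7.46 times in the BCAS and 1.66 times in the Sham group.

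The markers of several cell types were higher in BCAS mice too, though not always in the same order of mice. The 11 microglial markers were all called higher, and their summed level was 405 to 485 CPM in Sham mice and 5857, 1602, 2884 and 3129 CPM in BCAS mice 1 to 4. Of 10 monocyte and macrophage markers 8 were tested and 6 called higher (summed 37.8 to 49.4 CPM in Sham, 61.8 to 248 CPM in BCAS). Of 12 T cell markers 5 were tested and 4 called higher, with sums of 8.87 to 16.6 CPM in Sham and 106, 13.4, 66.7 and 26.2 CPM in BCAS mice 1 to 4, so that mouse 2 lay within the Sham range. Trbc2, the most abundant of them, held most of the Sham sum and stood at 9.28 CPM in Sham and 5.83 CPM in BCAS mice (log2 fold change -0.67, adjusted p = 0.134 by edgeR). The single tested marker of NK cells (of 6) and that of B cells (of 5) were called higher, with summed levels of 0.0568 to 0.458 and 0.511 to 1.75 CPM in Sham and 1.91 to 17.1 and 2.63 to 23.0 CPM in BCAS. None of the 11 neutrophil markers passed the filter, and Ly6g and Elane were at 0 in every library, while the summed level of the list was 0.437 to 1.09 CPM in Sham and 12.7, 0.979, 15.7 and 3.65 CPM in BCAS mice 1 to 4. The NK and the B cell marker reached the filter's minimum in no Sham library and so were tested only through the BCAS libraries, and 3 of the 5 tested T cell markers and 3 of the 8 of monocytes and macrophages did not reach the filter's minimum in every Sham library. Their part in the Schlafen values was not tested.

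The remaining lists mark the resident cells of the cortex. Of 6 astrocyte markers 2 were called higher (5 at an adjusted p under 0.05 by edgeR, with no fold threshold), and their summed level was 4324 to 5012 CPM in Sham and 5814 to 8756 CPM in BCAS mice. Gfap, the filament protein of reactive astrocytes, had a log2 fold change of 3.90 (SE 0.36). Of the 8 endothelial and 6 oligodendrocyte markers none was called, and 2 of the endothelial markers were higher at an adjusted p under 0.05 by edgeR. Of 7 neuronal markers 1 was called lower (5 at an adjusted p under 0.05 by edgeR), with a median log2 fold change of -0.79 and summed levels of 7648 to 8956 CPM in Sham and 2919 to 6416 CPM in BCAS. Of 7 markers of cortical excitatory neurons, which mark the labelled tissue, all were tested and 1 was called lower, with 3 lower at an adjusted p under 0.05 by edgeR and a median of -0.89. They were present in every library, but their summed level was 2042 to 2305 CPM in Sham and 634, 1768, 1322 and 1048 CPM in BCAS mice 1 to 4.

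Set against the summed microglial markers in the same library, the members gave different ratios between the groups. Slfn8 was 0.288, 0.360, 0.452 and 0.147 CPM per 100 CPM of microglial markers in the Sham group, against 1.03, 0.624, 0.899 and 0.674 in the BCAS group. The groups did not overlap, and the ratio of the means was 2.59. Slfn5 was 1.66 to 2.48 in Sham and 1.33 to 1.87 in BCAS mice, so its ratio of means was 0.787 and the groups overlapped. Slfn3 also had a ratio below 1 (0.647), Slfn9 stood at 1.68, Slfn2 at 2.06, Slfn1 at 8.47 and Slfn4 at 14.8, all with overlapping groups. The Sham mean of Slfn1 rests on Sham mouse 2 alone and that of Slfn4 on Sham mice 2 and 3, with the other Sham mice at 0. Exact permutation tests gave adjusted p-values of 0.1 to 0.143 over the 7 members, so none of these ratios passed the threshold, which this design can reach only if at least 5 of the 7 comparisons are at the smallest p. The microglial markers themselves differed between the groups, and this scaling was chosen after the data had been seen.

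**Figure D2:**
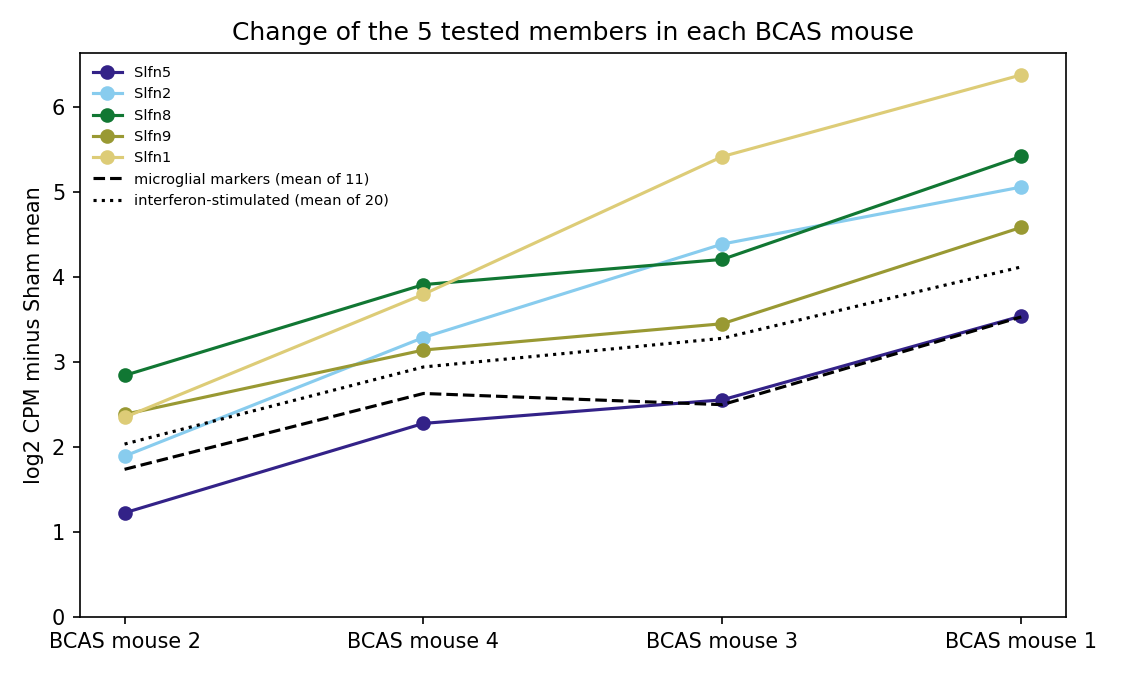
Change of the 5 tested members in each BCAS mouse (log2 CPM minus the mean of the 4 Sham mice), with the mean change of 11 microglial markers (dashed) and 20 interferon-stimulated genes (dotted). Mice are placed by their Schlafen level, and Slfn1, Slfn2, Slfn8 and Slfn9 lie above the microglial line in all 4 mice, while Slfn5 lies at 1.22, 2.28, 2.55 and 3.54 in mice 2, 4, 3 and 1 against 1.74, 2.63, 2.50 and 3.53 for the line.

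The make-up of the family level was compared as the share of each member. In Sham cortex Slfn5 held 40.1 to 56.1% of the summed CPM per kb of the 7 members, and in BCAS cortex 20.6 to 32.5%, without overlap. The means were 49.5 ± 6.79% and 26.1 ± 5.80% (SD, n = 4 each). The share of Slfn3 was 2.74 ± 0.978% in Sham and 1.11 ± 0.132% in BCAS cortex, again without overlap. For both shares the exact permutation test gave p = 0.0286, the smallest possible, which was 0.1 after adjustment over the 7 shares. Neither passed the threshold, which this design can reach only if at least 5 of the 7 shares are at the smallest p.

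For the other members the groups overlapped. Slfn1 went from 1.10 to 6.27% of the family level, Slfn4 from 0.574 to 4.06%, Slfn8 from 11.8 to 19.9% and Slfn2 from 28.9 to 36.7% on average. The share of Slfn9 was 5.38 ± 2.38% in Sham and 5.91 ± 1.64% in BCAS mice (SD, n = 4 each). Their adjusted exact p-values ran from 0.12 to 0.714. The difference for Slfn2, 7.79 percentage points, was 11.9 without Sham mouse 1 and 3.15 without Sham mouse 3, and that for Slfn9, 0.527, turned to -0.171 without Sham mouse 2 and to -0.213 without BCAS mouse 2. Shares sum to a whole, so these comparisons are not independent of each other.

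**Figure D3:**
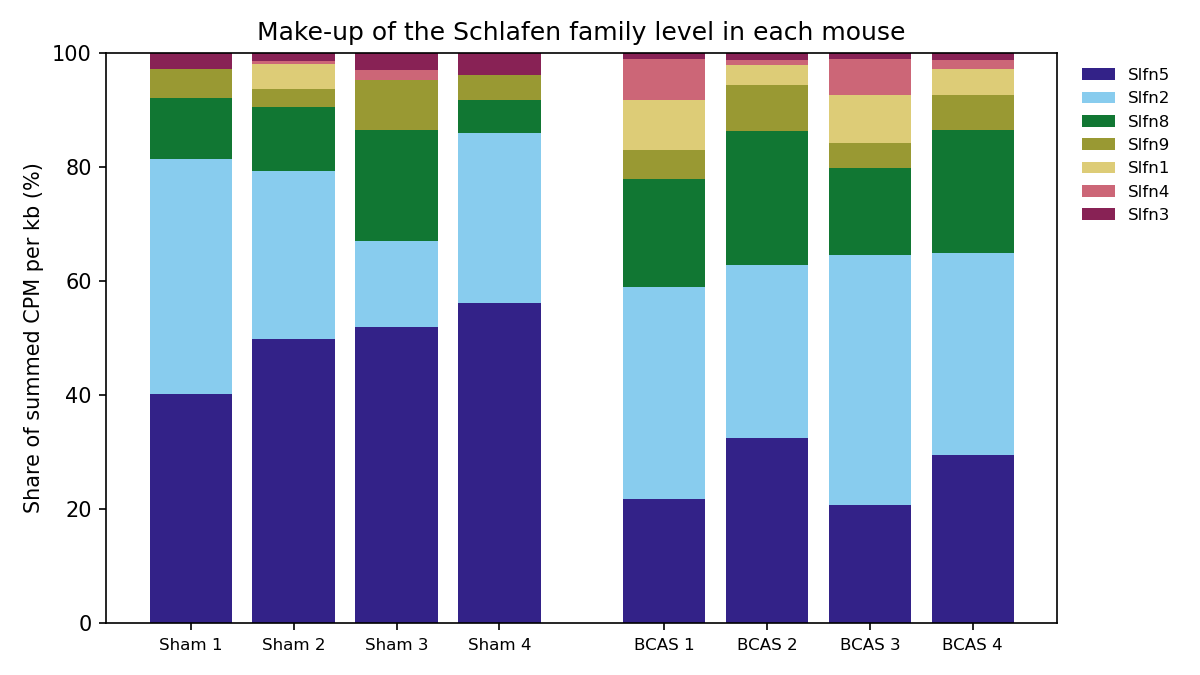
Share of each Schlafen member in the summed CPM per kb of exon of the 7 members, as stacked bars for each mouse (percent). Slfn5 takes 40.1 to 56.1% in Sham and 20.6 to 32.5% in BCAS mice.

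Ordered by level per kb of exon, the Sham means fell from Slfn5 (1.46 CPM per kb) over Slfn2 (0.883), Slfn8 (0.339), Slfn9 (0.150), Slfn3 (0.0779) and Slfn1 (0.0418) to Slfn4 (0.0148). In BCAS mice the order was Slfn2 (14.6 CPM per kb), Slfn5 (8.96), Slfn8 (7.16), Slfn1 (2.91), Slfn4 (2.20), Slfn9 (2.01) and Slfn3 (0.403). In each order only Slfn9 and Slfn3 were neighbours whose ranges over the 4 mice did not overlap. All other neighbours overlapped across mice. Within single BCAS mice, Slfn5 was above Slfn8, Slfn8 above Slfn1 and Slfn1 above Slfn4 in all 4. Slfn2 was above Slfn5 in 3 of the 4 BCAS mice and Slfn4 above Slfn9 in 2. Within single Sham mice, Slfn8 was above Slfn9 in all 4. Slfn5 was above Slfn2, Slfn2 above Slfn8 and Slfn3 above Slfn1 in 3 of the 4 Sham mice, and Slfn1 above Slfn4 in 1.

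Some pairs of members, chosen after their values were seen, had a narrower range of ratios of CPM per kb in BCAS than in Sham mice. Slfn8 over Slfn5 was 0.267, 0.224, 0.375 and 0.104 in the Sham group, against 0.871, 0.723, 0.744 and 0.733 in the BCAS group, although Slfn8 itself differed 6.03 times among the latter. Slfn8 over Slfn9 was 1.34 to 3.40 in Sham and 2.89 to 3.72 in BCAS mice. In each Sham library these ratios rest on 11 to 32 counts of Slfn8 and 12 to 21 of Slfn9. The BCAS libraries held 194 to 1370 and 98 to 537 counts. Counting error is thus larger in the Sham ratios, and the narrower range was not tested. By contrast, Slfn4 over Slfn3 was 7.48 and 6.15 in BCAS mice 1 and 3 but 0.860 and 1.22 in mice 2 and 4. Slfn1 over Slfn2 was 0.234 and 0.190 in BCAS mice 1 and 3 and 0.114 and 0.129 in mice 2 and 4. In BCAS mouse 2 these ratios rest on 8 counts each of Slfn4 and Slfn3 and on 13 counts of Slfn1. Mice 1 and 3 also had the highest summed marker levels of monocytes and macrophages, T cells, NK cells, B cells and neutrophils. They had the highest mean change of the interferon-stimulated genes as well. The microglial, astrocyte and endothelial sums, by contrast, were higher in mouse 4 than in mouse 3. The part of any of these cell types in the ratios was not tested.

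The profiles of the members over the 8 libraries were compared with those of the 13835 other genes that averaged 50 counts or more per library, as the root-mean-square (RMS) difference of centred log2 CPM. Nearest to Slfn1 were Cd74 and H2-Aa, the invariant chain and an alpha chain of MHC class II, and Cybb, a subunit of the phagocyte NADPH oxidase, with RMS differences of 0.33 to 0.41. Nearest to Slfn2 were the hematopoietic GTPase Rac2, the interferon regulator Irf7 and the interferon-responsive gene Epsti1 (0.32 to 0.33). Nearest to Slfn8 were Ptprc, which encodes CD45, Ms4a6c and the tyrosine kinase Btk (0.27 to 0.32).

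Slfn9 was nearest to the transcription factor Elf4, Gm8995 and Rasal3 (0.18 to 0.19). Slfn5 had the closest matches of all, the chloride channel protein Clic1, AI506816 and Rasa4 (0.11 to 0.13). Among the tested members Slfn8 and Slfn9 were the most alike (0.48) and Slfn1 and Slfn5 the least (1.26). These are descriptions over 8 libraries in 2 groups, in which genes with a like difference between the groups are alike.

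The genes around the cluster were examined to see how far along the chromosome the higher expression reached. Only genes that passed the filter were tested for this. Within 500 kb on either side, or inside it, lay 60 other genes, of which 22 were tested and 6 called higher, with none called lower, beside 11.0% higher and 1.28% lower over all tested genes. Slfn10-ps was the only one inside the cluster. The other called genes were the CC chemokines Ccl5, Ccl9, Ccl6, Ccl3 and Ccl4, which attract leukocytes and start 310.6 to 447.4 kb after the end of Slfn3. Their log2 fold changes were 5.01 (SE 0.86) for Ccl5, 3.89 (SE 0.45) for Ccl9, 4.88 (SE 0.50) for Ccl6, 7.64 (SE 0.51) for Ccl3 and 5.92 (SE 0.84) for Ccl4. Ccl3, Ccl4 and Ccl5 passed the filter only through the BCAS libraries.

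The 16 tested genes between and before these blocks, from Zfp830 to Unc45b and from AA465934 to Taf15, were not called. Among them Rffl, 80.1 kb before the cluster, had a log2 fold change of 0.76 (adjusted p = 0.0125 by edgeR) and 1700020L24Rik, 222.5 kb after it, one of 0.82 (adjusted p = 0.0464), both under the fold threshold. Unc45b, the tested gene nearest to Slfn5 at 7.95 kb, stood at 0.55 (SE 0.30, adjusted p = 0.184). Neighbours below the filter were not tested, so the tested genes do not settle where the higher expression ends. Mean CPM went from 0.0754 in Sham to 2.001 in BCAS mice for AI662270, 8.42 kb after the cluster. It went from 0.105 to 0.517 for Gm11427 (9.3 kb after), 0.0151 to 0.359 for Heatr9 and 0.0923 to 4.13 for Wfdc17. Slfn5os, Slfn14 and Wfdc18 had lower means in BCAS mice.

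**Figure D4:**
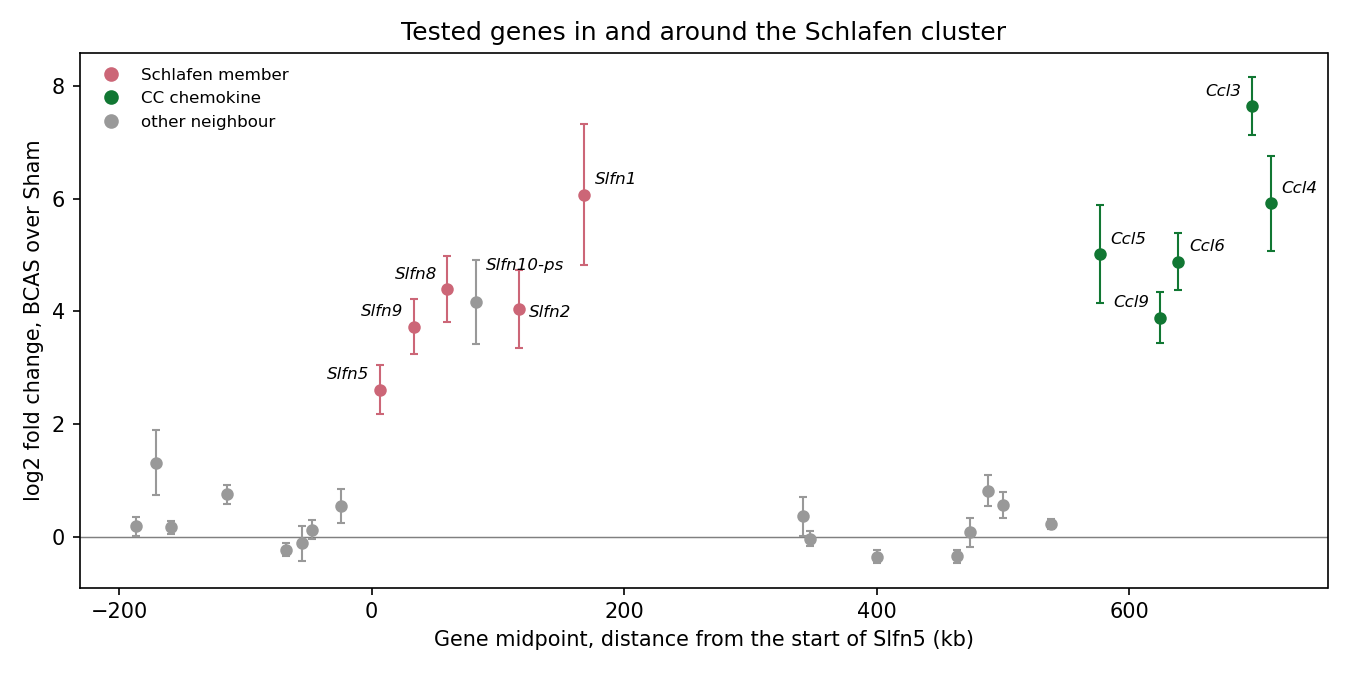
Log2 fold change (BCAS over Sham, points with SE from edgeR) of the tested genes within 500 kb of the Schlafen cluster, by the distance of the gene's midpoint from the start of Slfn5 in kb. Tested members (red) and the 5 CC chemokines (green) lie between 2.62 and 7.64, and the other genes (grey), except Slfn10-ps within the cluster, lie between -0.34 and 1.32.

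Interferon is known to act through receptors, Jak kinases and the Stat and Irf transcription factors, and the list of these genes gives the state of that pathway beside the family. Of its 15 genes 13 were tested, 7 were called higher and none lower, with a median log2 fold change of 1.15. By level the first were Jak1, the receptor chain Ifnar1, Jak2 and the receptor chain Ifngr2, with log2 fold changes of 0.02, 0.45, 0.35 and 0.55, none of which was called. The type I interferon gene Ifnb1 was at 0 in every library. Of 20 interferon-stimulated genes all 20 were tested and called higher, with a median of 3.21, and 15 of them reached the filter's minimum in every Sham library. The highest of these by level were Oasl2 at 3.81 (SE 0.48), Ifit2 at 1.63 (SE 0.28), Ifitm3 at 3.09 (SE 0.45) and Parp14 at 3.32 (SE 0.44). In BCAS mice 1 to 4 the mean log2 change of the list was 4.12, 2.03, 3.28 and 2.94, so that its mice stood in the same order as those of the Schlafen members.

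The genes tied to the described roles of Schlafen proteins are given as lists, beside 12.2% of all tested genes called in either direction. Of 7 genes of tRNA cleavage and its control, 1 was called higher, with a median of 0.30. It was Ang, the tRNA-cleaving ribonuclease angiogenin, at 3.42 (SE 0.35), a gene named here after its value was seen. The highest by level were the tRNA methyltransferase Nsun2 at -0.13, the ribonuclease inhibitor Rnh1 at 0.79, Elac1 at -0.16 and Elac2 at -0.22, none of which was called. Of 9 genes of lymphocyte quiescence 1 was called higher, the antiproliferative gene Btg1 at 1.08 (SE 0.26), and the median was -0.13. The transcription factors Foxo3 and Foxp1 stood at -0.40 and -0.52, and the growth inhibitor Tsc1 at -0.19. At an adjusted p under 0.05 by edgeR, with no fold threshold, 2 genes of this list were higher and 2, Foxo3 and Foxp1, lower.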

How the data were processed

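RNA-seq counts of the right cerebral cortex were taken for 4 Sham and 4 BCAS mice, grouped by the labels. According to the methods and labels, the authors used Trim Galore for trimming and HISAT2 for alignment to mm10, sorted alignments with SAMtools 1.9 and deposited raw counts per gene made with featureCounts. The labels give featureCounts 1.6.3, whereas the headers of the deposited count tables record 2.0.1 with paired reads, exons summed per gene, GENCODE vM20, and no option for strand, multi-mapping or overlapping reads, so reads shared between paralogs or overlapping genes were not counted. The tables name genes by identifier only. Symbols came from a GENCODE vM21 table and matched 54723 of 54752 genes, 53861 by the exact versioned identifier.

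From these counts edgeR 4.0.16 in R 4.3.3 fitted all 17136 genes that passed filterByExpr (minimum count 10, minimum total 15) with TMM scaling and no covariates, and the quasi-likelihood F-test was adjusted by Benjamini-Hochberg. The SE of a log2 fold change is its size divided by the square root of F. The CPM of members below the filter, shares of the family level, and CPM relative to the summed microglial markers were tested with exact two-sided permutation tests. SciPy 1.17.1 supplied the Benjamini-Hochberg adjustment of these tests and the binomial intervals. DESeq2 1.42.0, limma 3.58.1, other filters, scalings and thresholds, the replicate block and each library left out were alternatives, and the script was tested on simulated data. No pair of libraries agreed within sampling noise. Intervals and limits cover counting error only. Named genes were the 7 members, the other Schlafen symbols, called neighbours within 500 kb, the 4 genes of each list with the highest mean CPM, and the 3 nearest profiles per called member. Other genes (uncalled and untested neighbours, Ang and genes at 0) were named after their values were seen. The lists of marker genes are given by counts and summed level. Members and lists were chosen with earlier results of these data known. Promoters came from RefSeq (GRCm38.p6). No protein sequence was used here.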

Additional observations from a re-analysis of the deposited data

Results flagged for a closer look

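A single library stood apart from the other libraries of its group in 2 of the 28 group values looked at for the 7 members (CPM and share of the family level in each group), both in Slfn1 in Sham mice. Sham mouse 2 held 5 counts of Slfn1 and the other Sham mice held 0, so the gap between mouse 2 and the rest was the whole range, a gap-to-range ratio of 1 for the CPM and of 1 for the share (4.38% in mouse 2). By chance about 1 in 20 groups is flagged in this way, but that rate is not meant for values at the count floor. With 3 mice tied at 0 the ratio is 1 by construction, and both values rest on the same 5 counts.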

How the results depend on the processing

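The 5 tested members kept their direction and their call under the alternative tools, library scalings and filters that tested them, and in the 8 fits that each left out a library. On the log2(CPM + 1) scale, which compresses low levels, their changes were smaller, down to 2.15 for Slfn1. The number of members called was 5, and 4 when at least 10 counts were asked in every library (4 tested), 7 with no filter, and 5 to 7 with a library left out. Over all genes 2097 were called, 5490 without a fold threshold, 744 when tested against a log2 fold change of 1 and 1644 to 2967 with a library left out. With a library left out the log2 fold changes were 5.24 to 9.67 for Slfn1, 3.50 to 4.40 for Slfn2, 2.12 to 2.90 for Slfn5, 3.78 to 4.69 for Slfn8 and 3.18 to 4.00 for Slfn9. Divided by the summed CPM of the microglial markers, an alternative added after seeing the data, they were 3.08 for Slfn1, 1.04 for Slfn2, 1.37 for Slfn8, 0.75 for Slfn9 and -0.35 for Slfn5, and did not pass an exact permutation test in place of edgeR. Since both the scaling and the test differ, and that test can pass only with at least 5 of 7 members at its smallest p, the lost calls say little about the scaling.

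Same-numbered Sham and BCAS mice were not taken as pairs. Their deviations correlated at -0.10 to 0.001, and those of differently numbered mice at -0.11 to 0.12. Such correlations cannot show whether a surgery day or a library batch was shared. With the replicate block 5 members and 1809 genes were called, and the log2 fold changes were 5.70 for Slfn1, 3.75 for Slfn2, 2.42 for Slfn5, 4.18 for Slfn8 and 3.57 for Slfn9.

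The difference in the share of Slfn9 (0.527 percentage points) turned to -0.171 without Sham mouse 2 and to -0.213 without BCAS mouse 2, and reached 1.66 without Sham mouse 3; the cause was not tested. With a library left out the other differences in share were 4.35 to 6.27 for Slfn1, 3.15 to 11.9 for Slfn2, -2.06 to -1.27 for Slfn3, 2.40 to 4.51 for Slfn4, -26.5 to -21.2 for Slfn5 and 6.06 to 10.6 percentage points for Slfn8. For the members below the filter the log2 ratio of mean CPM was 1.87 to 2.67 for Slfn3 and 6.13 to 8.71 for Slfn4. The adjusted exact permutation p was 0.114 and 0.171 without any one Sham mouse and 0.0286 for both without any one BCAS mouse. Every BCAS mouse still stood above every Sham mouse in each case, so the larger p does not mark an overlap of the groups. Depth limits Slfn1, Slfn3 and Slfn4 in Sham mice, where their totals over 4 libraries were 5, 18 and 4 counts.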
